A study of Homo sapiens with 6 samples.

Results

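The 10 genes described here encode the proteins that carry the signal from the interleukin-1 receptor to its first kinases: MYD88, IRAK1, IRAK2, IRAK4, TOLLIP, TRAF6, MAP3K7, TAB1, TAB2 and TAB3. They were chosen by name, and all 10 were found among the 27945 genes of the deposited table. The cells were HaCaT, an immortalised human keratinocyte line, and their mRNA was sequenced in 6 libraries. The groups were MAPK14-null cells (p38α knockout) with IL-1α for 4 h (2 libraries), MAPK14-null cells with PBS alone for 4 h (1 library), wild-type cells with IL-1α for 4 h (2 libraries) and wild-type cells with PBS alone for 4 h (1 library). The sources used here do not say how MAPK14 was edited, whether the null cells are 1 clone, or whether libraries marked as replicates came from separate cultures, so p-values measure only the spread between these libraries. All values are from bulk RNA and therefore from RNA levels; a change per cell and a change in which cells are present cannot be told apart.

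When IL-1 binds, its receptor and co-receptor bring their TIR domains together and recruit the adaptor MYD88, which gathers the kinases IRAK4, IRAK1 and IRAK2 into a complex called the Myddosome. The IRAKs then engage TRAF6, a ubiquitin ligase whose chains are read by TAB2 or TAB3, the ubiquitin-binding partners of the kinase TAK1, which MAP3K7 encodes. TAK1 in turn activates the IκB kinases and the kinases upstream of p38 and JNK, while TAB1, its other partner, activates TAK1 and also binds p38α, and TOLLIP holds IRAK1 in check. In keratinocytes this route links IL-1α released from injured cells to NF-κB target genes.

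Among the 10 genes IRAK2 alone lay above 1 on the log2 scale in either response, and it did so in both genotypes. The promoters of IRAK2 and MYD88, the pair with the largest wild-type differences upstream of TRAF6, are shown because these windows lie at the starts of the Myddosome genes with those differences. In the table's hg19 coordinates IRAK2 spans chromosome 3 from 10206563 to 10285427 and MYD88 chromosome 3 from 38179969 to 38184512, both on the plus strand. Sequences are from RefSeq (GRCh38.p14), 250 bases before to 50 after the annotated start, 5′ to 3′ on the plus strand, at chr3:10164669-10164968 for IRAK2 and chr3:38138411-38138710 for MYD88. All 10 genes matched an entry, 12 promoters in all. Capitals mark a match, on either strand, to the consensus NF-κB site, to the AP-1 motif TGANTCA or to the interferon response core, which is GAAA, any 2 bases and GAAA again.
IRAK2: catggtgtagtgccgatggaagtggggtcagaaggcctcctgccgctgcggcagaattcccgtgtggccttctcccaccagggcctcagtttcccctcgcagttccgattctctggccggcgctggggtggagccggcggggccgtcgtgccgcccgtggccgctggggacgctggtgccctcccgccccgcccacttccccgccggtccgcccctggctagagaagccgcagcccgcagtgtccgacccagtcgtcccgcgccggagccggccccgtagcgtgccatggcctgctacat
MYD88: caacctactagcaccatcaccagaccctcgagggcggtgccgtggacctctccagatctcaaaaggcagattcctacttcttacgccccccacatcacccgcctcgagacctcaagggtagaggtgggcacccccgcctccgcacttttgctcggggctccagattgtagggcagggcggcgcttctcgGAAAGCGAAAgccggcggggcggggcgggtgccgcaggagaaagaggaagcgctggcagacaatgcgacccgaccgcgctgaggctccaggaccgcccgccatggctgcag
The MYD88 window held GAAAGCGAAA, an interferon response core, at bases -61 to -52 from the start, and 3.57% of the 35116 promoters of the same length held that motif. The IRAK2 window held none of the 3 motifs. The NF-κB consensus was present in the IRAK1 window and in the second promoters of TOLLIP and TAB2, against 11.3% of all promoters, and the AP-1 motif in the IRAK1 window, against 7.71%. A match or its absence describes these letters only.

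Reads per library, recovered from the steps between low values, ran from 16294321 to 34967554, of which 80.1% to 83.2% fell in exons. The 8 keratinocyte markers, KRT5, KRT14 and TP63 among them, summed to between 2992 and 3442 RPKM in the knockout libraries and between 4148 and 4713 RPKM in the wild-type libraries, and all 8 exceeded 1 RPKM. None of 6 leukocyte or 4 melanocyte markers reached 1 RPKM in any library. Of 6 fibroblast markers 2 did, and the highest was at 1.20 RPKM. Among 3 endothelial markers PECAM1 was listed at 0 throughout and VWF stayed at or below 0.374 RPKM, while CDH5 read 10.3 and 1.84 RPKM in IL-1α-treated knockout libraries against 2.94 RPKM in unstimulated knockout cells, and 11.4 and 11.8 RPKM in IL-1α-treated wild-type libraries against 1.45 RPKM in the unstimulated one. Its part in the results was not tested. Knockout IL-1α replicate 2 stood apart: it correlated at 0.969 across genes with its own replicate, while its replicate correlated at 0.982 with knockout cells that had PBS alone.

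MAPK14, the gene targeted in the knockout, was still transcribed. It read 11.0 and 7.41 RPKM in IL-1α-treated knockout libraries and 11.3 RPKM in unstimulated knockout cells, against 13.3 and 14.8 RPKM in IL-1α-treated wild-type libraries and 14.4 RPKM in the unstimulated wild-type library. Every knockout library lay below every wild-type library. Among IL-1α libraries, 16.3% of tested genes had both knockout ones below both wild-type ones, and the share over all libraries was not computed. The difference under IL-1α was -0.61 ± 0.22 (log2, SE; adjusted p = 0.301, limma), and it was -0.34 without knockout replicate 2 and -0.88 without replicate 1. A value over the whole gene does not reveal a small frameshift, so the loss of p38α protein was not measured here.

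The IL-1α stimulus itself was visible in RNA of both genotypes. CXCL8, the neutrophil-attracting chemokine, rose by 4.00 on the log2 scale in knockout cells (adjusted p = 0.0469, limma) and by 3.76 in wild-type cells (adjusted p = 0.0358). BIRC3, a ubiquitin ligase of NF-κB signalling, rose by 2.26 in knockout cells (adjusted p = 0.0387) and by 3.07 in wild-type cells (adjusted p = 0.00773). SOD2, a mitochondrial antioxidant enzyme, differed by 2.16 in knockout cells (adjusted p = 0.0928) and rose by 2.44 in wild-type cells (adjusted p = 0.0446). These genes come from a list of 6 known IL-1 response genes. Of these, 2 passed in knockout cells, where 0.0696% of tested genes did, and 4 in wild-type cells, where 0.217% did. The list was chosen with earlier results of these data known, so it is no independent check of the stimulus.

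Ordered by mean level per transcript length over the 6 libraries, the 10 genes ran from IRAK1 at 71.7 RPKM (62.6 to 82.5) to IRAK2 at 1.64 RPKM (0.173 to 2.75). MYD88 came second at 29.6 RPKM (23.8 to 34.6) and did not overlap either neighbour. TAB2 at 18.3 RPKM (12.6 to 23.8) and TOLLIP at 14.4 RPKM (13.0 to 15.4) overlapped each other. Below them followed MAP3K7 (11.5 RPKM), TAB3 (11.1 RPKM), TAB1 (7.42 RPKM), IRAK4 (4.95 RPKM) and TRAF6 (3.83 RPKM). In this run the range of each gene overlapped that of the next, over libraries of unlike treatment and genotype. Compared within libraries, TAB1 lay above IRAK4 in every one, so overlapping ranges did not mean equal levels. MAP3K7 and TAB3 also lay above IRAK4 and TRAF6 in every library, and TRAF6 lay above IRAK2. IRAK1 stood above 93.1% and IRAK2 above 13.8% of the 12925 genes tested by mean level. IRAK4, the kinase that starts the cascade, was listed at between 5.01% and 9.03% of the level of its substrate IRAK1 in every library.

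**Figure D1:**
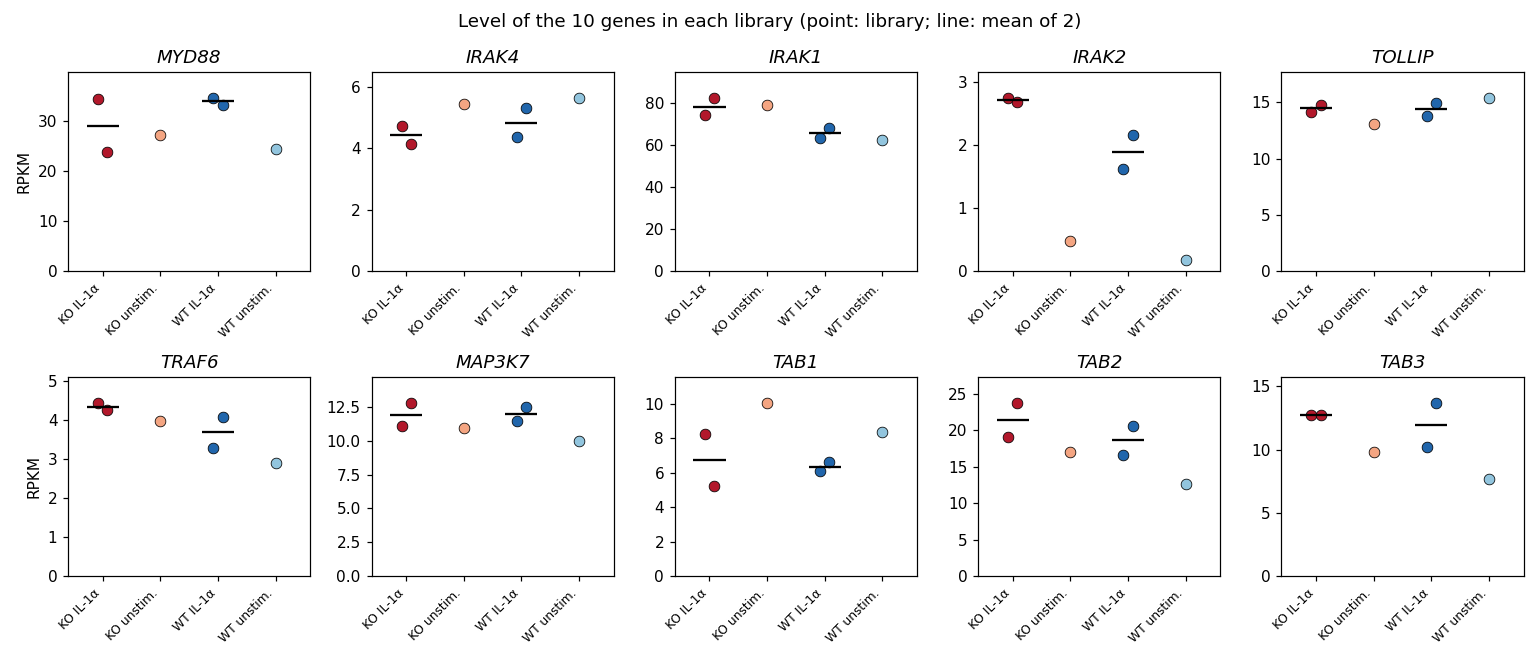
Level of each of the 10 genes in RPKM (linear axes from 0), with 1 point per library; groups run from knockout with IL-1α, knockout unstimulated and wild type with IL-1α to wild type unstimulated, and a line marks the mean of a pair. IRAK2 is the gene whose IL-1α libraries (1.62 to 2.75 RPKM) all lie far above both unstimulated libraries (0.48 RPKM in knockout and 0.173 RPKM in wild type).

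IRAK2, the relative of IRAK1 that joins the Myddosome and is known to sustain its output, had the widest range of the 10 genes. It read 2.75 and 2.68 RPKM in IL-1α-treated knockout libraries against 0.48 RPKM in the unstimulated knockout library. In wild-type cells it read 1.62 and 2.16 RPKM with IL-1α against 0.173 RPKM without. All 4 IL-1α libraries exceeded both unstimulated ones. The share of tested genes with that pattern was not computed, but 14.1% lay above in both genotypes, each against its own unstimulated library. On the log2(RPKM + 0.5) scale the difference was 1.72 ± 0.30 in knockout cells (SE, 95% interval 0.99 to 2.44; adjusted p = 0.241, limma) and 1.82 ± 0.30 in wild-type cells (1.09 to 2.54; adjusted p = 0.0915), so neither response passed the threshold of 0.05 after adjustment over 12925 genes. IRAK2 lay above 99.5% of tested genes in knockout cells and above 99.4% in wild-type cells by size of difference. Its reads were few: 208 and 276 against 58 in knockout cells, and 91 and 138 against 10 in wild-type cells. These gave read ratios of 5.65 (exact 95% interval 4.29 to 7.55) in knockout cells and 11.0 (5.87 to 23.2) in wild-type cells, intervals that cover counting error only. The log2 values of so low a gene depend on the pseudocount: with 0.1 RPKM the differences were 2.28 in knockout and 2.85 in wild-type cells, and with voom weights 2.49 and 3.42. Because its unstimulated libraries were under 1 RPKM, IRAK2 entered the test through its IL-1α libraries alone.

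IRAK1, the abundant kinase of the complex, read 74.1 and 82.5 RPKM in IL-1α-treated knockout libraries against 79.3 RPKM in unstimulated knockout cells, and 63.4 and 68.1 RPKM in IL-1α-treated wild-type libraries against 62.6 RPKM. The IL-1α differences were -0.02 ± 0.19 in knockout cells (adjusted p = 1) and 0.07 ± 0.19 in wild-type cells (adjusted p = 0.873), and with the length trend removed the wild-type value was -0.01. The ratio of the pair gives the same libraries on another scale. IRAK2 was at 3.71% and 3.25% of the IRAK1 level in IL-1α-treated knockout libraries against 0.606% in the unstimulated knockout library. In wild-type cells it was at 2.55% and 3.17% with IL-1α against 0.276% without. IRAK2 RNA remained the minor one in every library.

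IRAK4, the kinase that phosphorylates IRAK1, was lower with IL-1α in every library pair. It read 4.75 and 4.13 RPKM in IL-1α-treated knockout libraries against 5.46 RPKM unstimulated, and 4.37 and 5.32 RPKM in IL-1α-treated wild-type libraries against 5.65 RPKM. The differences of -0.27 ± 0.24 in knockout cells (adjusted p = 1) and -0.21 ± 0.24 in wild-type cells (adjusted p = 0.677) did not pass. The wild-type value was -0.062 after median-of-ratios rescaling and -0.081 without wild-type replicate 1.

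MYD88, the adaptor, separated the genotypes' libraries differently. It read 34.4 and 23.8 RPKM in IL-1α-treated knockout libraries, on either side of the unstimulated knockout library at 27.2 RPKM. In wild-type cells both IL-1α libraries, at 34.6 and 33.2 RPKM, lay above the unstimulated one at 24.3 RPKM. The IL-1α difference was 0.07 ± 0.25 in knockout cells (adjusted p = 1) and 0.47 ± 0.25 in wild-type cells (adjusted p = 0.381). The knockout replicates lay 0.52 apart on the log2 scale, against 0.06 for the wild-type pair and a median of 0.25 over all tested genes in the knockout pair. The knockout difference was -0.19 without replicate 1 and 0.33 without replicate 2, so 1 library decided its direction. The response difference between genotypes, -0.40 ± 0.36, did not pass (adjusted p = 0.966), and it was -0.14 without knockout replicate 2 and -0.66 without replicate 1.

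TOLLIP, the inhibitory partner of IRAK1, was the steadiest of the 10, with a highest library 1.18 times its lowest. It read 14.2 and 14.8 RPKM in IL-1α-treated knockout libraries against 13.0 RPKM unstimulated, and 13.8 and 15.0 RPKM in IL-1α-treated wild-type libraries against 15.4 RPKM. The differences were 0.15 ± 0.19 in knockout cells (adjusted p = 1) and -0.10 ± 0.19 in wild-type cells (adjusted p = 0.816), and the wild-type value was 0.061 after median-of-ratios rescaling.

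TRAF6, the ubiquitin ligase, was higher with IL-1α in every library but by little. It read 4.44 and 4.26 RPKM in IL-1α-treated knockout libraries against 3.98 RPKM unstimulated, and 3.29 and 4.08 RPKM in IL-1α-treated wild-type libraries against 2.91 RPKM. The differences were 0.12 ± 0.24 in knockout cells (adjusted p = 1) and 0.29 ± 0.24 in wild-type cells (adjusted p = 0.569), and the wild-type value was -0.01 once the trend with transcript length was removed. At 7919 bases TRAF6 is the longest transcript of the 10.

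The subunits of the TAK1 complex did not move alike. MAP3K7, which encodes the kinase itself, read 11.1 and 12.8 RPKM in IL-1α-treated knockout libraries against 10.9 RPKM unstimulated, and 11.5 and 12.5 RPKM in IL-1α-treated wild-type libraries against 10.0 RPKM (log2 differences 0.11 ± 0.21, adjusted p = 1, and 0.25 ± 0.21, adjusted p = 0.564). TAB2, a ubiquitin reader, stood at 19.2 and 23.8 RPKM in IL-1α-treated knockout libraries against 17.0 RPKM, and at 16.7 and 20.7 RPKM in IL-1α-treated wild-type libraries against 12.6 RPKM. Its differences were 0.32 ± 0.24 in knockout cells (adjusted p = 1) and 0.54 ± 0.24 in wild-type cells (adjusted p = 0.298). Without knockout replicate 2 the knockout values were 0.17 for TAB2 and 0.014 for MAP3K7. Every IL-1α library of MAP3K7 and TAB2 lay above the unstimulated library of its genotype, but no difference passed.

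TAB3, the other ubiquitin reader, read 12.7 RPKM in both knockout IL-1α libraries against 9.82 RPKM unstimulated, and 10.2 and 13.7 RPKM in IL-1α-treated wild-type libraries against 7.71 RPKM. The differences were 0.36 ± 0.24 in knockout cells (adjusted p = 1) and 0.58 ± 0.24 in wild-type cells (adjusted p = 0.271). With the length trend removed the wild-type value was 0.31. TAB3 spans an antisense gene, TAB3-AS1, with at most 1.62 RPKM, and since no source used here says whether strand was used in counting, reads of the pair cannot be told apart.

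TAB1, the partner that activates TAK1 and binds p38α, was lower with IL-1α in every library. It read 8.22 and 5.20 RPKM in IL-1α-treated knockout libraries against 10.0 RPKM unstimulated, and 6.10 and 6.60 RPKM in IL-1α-treated wild-type libraries against 8.38 RPKM. The differences were -0.58 ± 0.29 in knockout cells (adjusted p = 1) and -0.38 ± 0.29 in wild-type cells (adjusted p = 0.541). The knockout value was -0.27 without replicate 2 and -0.89 without replicate 1. As a share of TAB2, TAB1 stood at 42.9% and 21.9% in IL-1α-treated knockout libraries against 59.0% unstimulated, and at 36.5% and 31.9% in IL-1α-treated wild-type libraries against 66.2%. In all 4 IL-1α libraries the share was below both unstimulated ones, and how often other pairs of genes do so was not computed. With IL-1α, TAB1 lay below and TAB2 above the unstimulated library in both genotypes, patterns of 25.9% and 14.1% of tested genes. TAB3 as a share of TAB2 stayed between 53.6% and 66.4% in the 6 libraries.

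**Figure D2:**
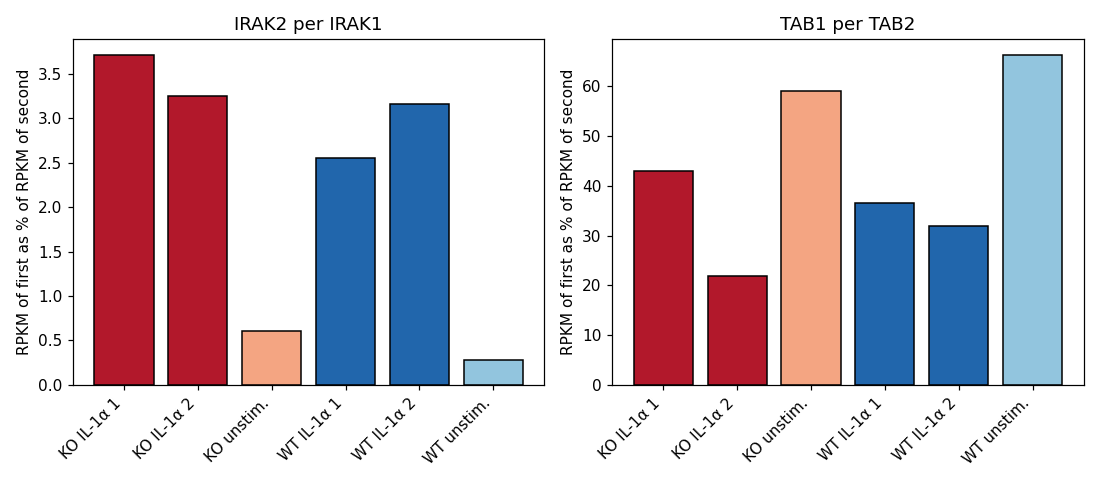
RPKM of IRAK2 as a percentage of IRAK1 (left) and of TAB1 as a percentage of TAB2 (right), 1 bar per library from knockout with IL-1α to wild type unstimulated, axes from 0. IRAK2 stands at 2.55% to 3.71% of IRAK1 with IL-1α and at 0.276% and 0.606% without; TAB1 stands at 21.9% to 42.9% of TAB2 with IL-1α and at 59.0% and 66.2% without.

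Counted over the 10 genes, none passed the test in either response, where 0.0696% of tested genes passed in knockout and 0.217% in wild-type cells (limma). At an unadjusted p under 0.05 there was 1 gene in knockout cells (IRAK2) and 2 in wild-type cells (IRAK2 and TAB3), all higher. At that p 3.58% of tested genes lay in knockout cells (2.53% higher, 1.05% lower) and 18.1% in wild-type cells (4.69% higher, 13.4% lower). The wild-type imbalance depended on scaling, with 606 genes higher and 1727 lower as deposited, and 1021 higher and 928 lower after median-of-ratios rescaling. Voom weights gave 0 passing in both genotypes, with 1 gene at unadjusted p under 0.05 in knockout and 3 in wild-type cells. In knockout cells the number at that p was 0 with the 5 RPKM minimum, which leaves IRAK2 untested. Without knockout replicate 1 the knockout difference of TAB1, a lower gene, was -0.89. Over the other settings the wild-type number at that p ran from 1 to 4, with 4 after median-of-ratios rescaling and 1 with the length trend removed, with no filter, with no variance trend or without wild-type replicate 2, where TAB3 no longer had it. In knockout cells 6 of 10 genes had both IL-1α libraries above the unstimulated one, against 27.8% of tested genes, and 2 had both below, against 36.4%. In wild-type cells 7 of 10 had both above, against 27.5%, and 3 had both below, against 54.3%. IRAK2, TRAF6, MAP3K7, TAB2 and TAB3 lay above in both genotypes, a pattern of 14.1% of tested genes, and IRAK4 and TAB1 below in both, a pattern of 25.9%. The median difference of the 10 was 0.12 in knockout and 0.27 in wild-type cells, where the medians of all tested genes were -0.02 and -0.14. Median-of-ratios rescaling moved the wild-type median of all genes to 0.00. It raised the 10 genes as well, MYD88 from 0.47 to 0.63, TAB2 from 0.54 to 0.69 and TAB1 from -0.38 to -0.22.

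**Figure D3:**
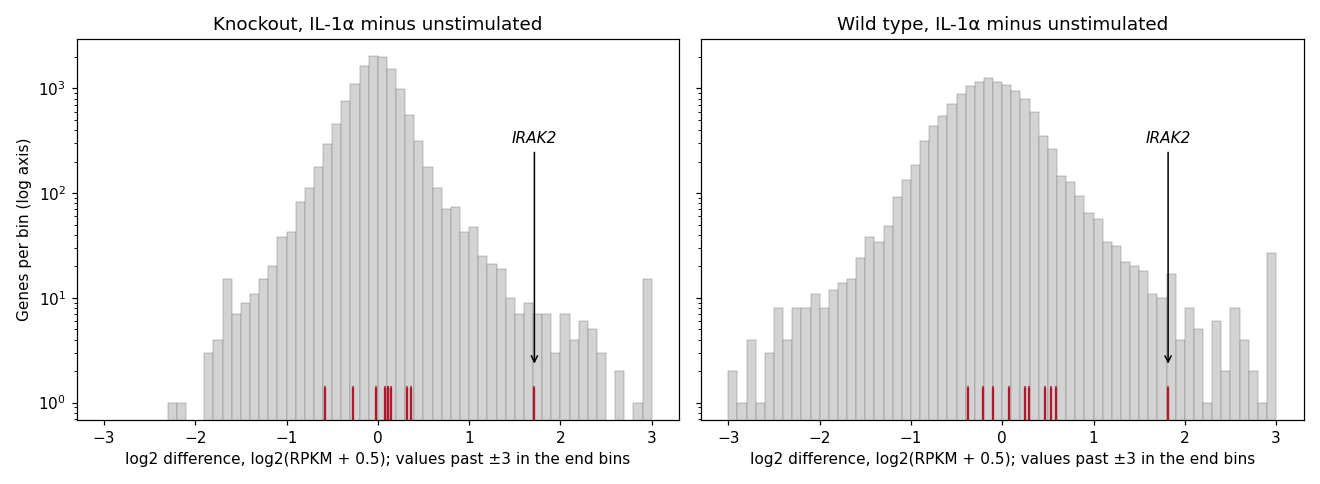
Distribution of IL-1α minus unstimulated log2 differences over 12925 tested genes in knockout (left) and wild-type cells (right), with genes per bin on a log axis and the 10 genes as red ticks. IRAK2, at 1.72 in knockout and 1.82 in wild-type cells, sits in the upper tail, and the other 9 genes lie between -0.58 and 0.58.

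Knockout and wild-type cells were compared under IL-1α to ask whether loss of p38α alters the levels of its own upstream pathway. IRAK1, IRAK2 and TRAF6 had both knockout libraries above both wild-type libraries (3 of 10, against 32.4% of tested genes), and no gene had both below (against 16.3%). IRAK2 averaged 2.72 ± 0.0474 RPKM in knockout and 1.89 ± 0.381 RPKM in wild-type cells (SD, n = 2 each), a log2 difference of 0.44 ± 0.24 (adjusted p = 0.442, limma). IRAK1 averaged 78.3 ± 5.93 RPKM in knockout and 65.8 ± 3.30 RPKM in wild-type cells (0.25 ± 0.16, adjusted p = 0.487). TRAF6 differed by 0.22 ± 0.20 (adjusted p = 0.631). MYD88 had the lowest value, -0.24 ± 0.21 (adjusted p = 0.61). It was at 0.02 without knockout replicate 2 and at -0.50 without knockout replicate 1. The remaining 6 genes lay between -0.11 (IRAK4) and 0.20 (TAB2). None of the 10 passed, where 0.155% of tested genes did, and none had unadjusted p under 0.05, where 14.9% did (9.97% higher, 4.93% lower); voom weights also gave none at either. That imbalance turned round with scaling, as 1289 genes were higher and 637 lower as deposited, and 764 higher and 1033 lower after median-of-ratios rescaling. The widest 95% interval, that of IRAK2, ran from -0.15 to 1.03, while for IRAK1 it ran from -0.13 to 0.63.

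Without stimulation there was 1 library per genotype, so differences have no replicate check. IRAK2 had 58 reads in the knockout and 10 in the wild-type library, a read ratio of 2.77 (exact 95% interval 1.41 to 6.09, counting error only), or 0.54 on the log2(RPKM + 0.5) scale. TAB2 (0.41), TRAF6 (0.39), IRAK1 (0.34) and TAB3 (0.33) were next, though TAB3 was at 0.00 and TRAF6 at 0.02 with the length trend removed. TOLLIP (-0.23) and IRAK4 (-0.05) were lower in the knockout library. The other 8 genes were higher, where 48.5% of tested genes were, although MAP3K7 (0.12) was at -0.12 with the length trend removed. None differed by 2-fold while reaching 1 RPKM in either library, a size reached by 6.53% of tested genes.

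**Figure D4:**
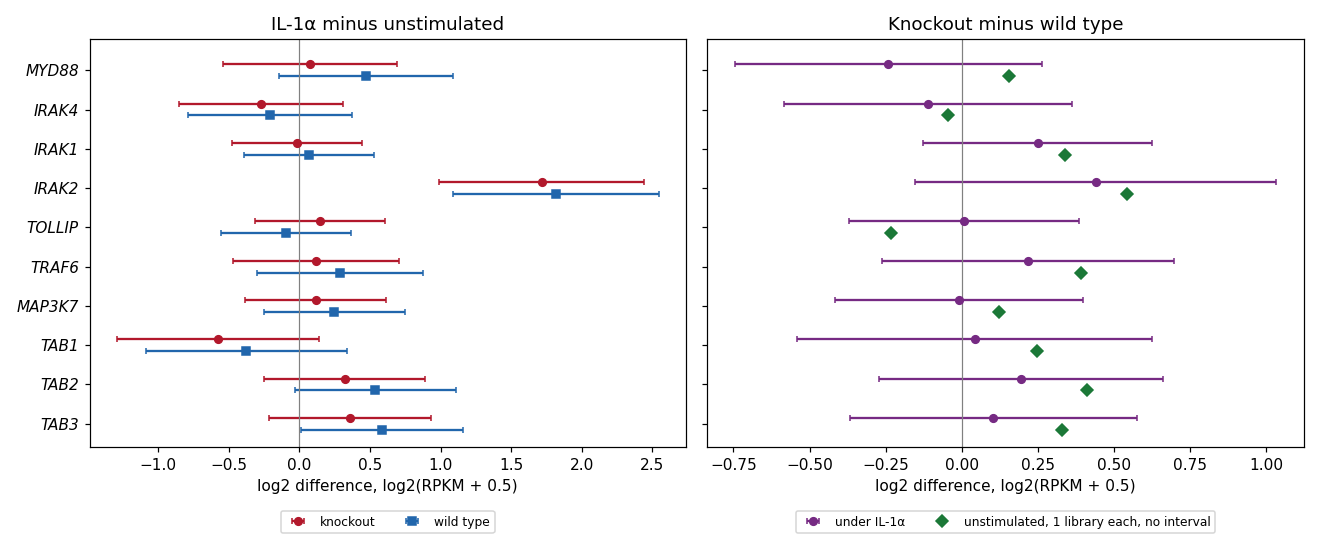
Log2 differences of the 10 genes with 95% intervals from limma: IL-1α minus unstimulated in knockout (circles) and wild type (squares) on the left, and knockout minus wild type under IL-1α (circles) and unstimulated (diamonds, 1 library each and no interval) on the right. The IRAK2 intervals for IL-1α run from 0.99 to 2.44 in knockout and from 1.09 to 2.54 in wild type; every interval on the right includes 0.

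Whether the response to IL-1α differed between genotypes was tested as an interaction, knockout response minus wild-type response. IRAK2 had -0.10 ± 0.42 (95% interval -1.13 to 0.93, adjusted p = 0.989, limma), with knockout and wild-type responses of 1.72 and 1.82. The value was -0.93 with voom weights and -0.57 with a pseudocount of 0.1, so the responses were not shown to be alike. TOLLIP had the only positive value (0.24 ± 0.27), and the other 9 ran from -0.40 (MYD88) to -0.06 (IRAK4). None of the 10 passed, nor did any of the 12925 genes tested (0%), and none of the 10 had unadjusted p under 0.05, where 4.39% of tested genes did (3.76% higher, 0.627% lower); voom weights gave none at either. The comparison of genotypes under IL-1α shares its libraries with both responses.

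The genes whose profile over the 6 libraries came closest to IRAK2, the member with the widest range, were sought among 2717 genes with a range of at least 1 on the log2 scale. Likeness was the largest gap in any library between log2 values centred on each gene's own mean. The closest were ICOSLG, a T-cell costimulatory ligand (largest gap 0.30), IL7R, a cytokine receptor subunit (0.33), ANKK1, a kinase with ankyrin repeats (0.34), TNIP1, which binds the ubiquitin editor A20 (0.35), and NINJ1, a membrane protein (0.36). ICOSLG read 9.09 and 8.79 RPKM in IL-1α-treated knockout libraries against 3.58 RPKM unstimulated, and 7.65 and 9.38 RPKM in IL-1α-treated wild-type libraries against 2.32 RPKM. None of the 5 passed in either response.

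Among IL-1 and related receptors and their inhibitors, some had lower values in knockout cells. IL1R1, the signalling IL-1 receptor, read 2.76 and 5.06 RPKM in IL-1α-treated knockout libraries and 3.38 RPKM in unstimulated knockout cells, against 12.1 and 11.5 RPKM in IL-1α-treated wild-type libraries and 10.6 RPKM in the unstimulated wild-type library. Every knockout library was below every wild-type one, but the difference under IL-1α, -1.53 ± 0.27, did not pass (adjusted p = 0.134, limma). Among IL-1α libraries, 16.3% of tested genes had both knockout ones below both wild-type ones. The share over all 6 libraries was not computed. IL1R2, the decoy receptor, read 6.50 and 8.81 RPKM with IL-1α against 1.48 RPKM without in knockout cells, and 25.7 and 17.4 RPKM against 4.59 RPKM in wild-type cells. Its responses, 2.03 in knockout (adjusted p = 0.151) and 2.09 in wild-type cells (adjusted p = 0.0715), did not pass either. IL1RL1, the IL-33 receptor, read 6.17 and 20.9 RPKM with IL-1α against 3.40 RPKM without in knockout cells, so the knockout replicates lay far apart, and 28.7 and 20.1 RPKM against 5.15 RPKM in wild-type cells. It differed with IL-1α by 1.61 in knockout (adjusted p = 1) and 2.12 in wild-type cells (adjusted p = 0.191). IL1RAP, the co-receptor, named after its values were seen, stayed between 9.66 and 10.2 RPKM in all 6 libraries. Of 9 receptors and inhibitors 8 were tested and 0 passed in the 4 tested contrasts, where at most 0.217% of tested genes did. For knockout against wild type under IL-1α their median was -0.72, where all tested genes had 0.09. In that contrast 3 had unadjusted p under 0.05 (limma), all lower, where 14.9% of tested genes did (4.93% lower). These were IL1R1, IL1R2 and IL1RN, an inhibitor rather than a receptor (-0.98 ± 0.18). Without stimulation, with 1 library per genotype and no test, 3 were lower by over 2-fold in the knockout library: IL1R1 (-1.51), IL1R2 (-1.36) and IL1RL2 (-1.31). Of all tested genes 6.53% differed by 2-fold there, in either direction.

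Of 11 brakes on the pathway 10 were tested, and 0 passed in knockout and 1 in wild-type cells. Of all tested genes 0.0696% passed in knockout and 0.217% in wild-type cells. TNFAIP3, which encodes the ubiquitin editor A20 that acts on TRAF6, differed by 2.30 in knockout cells (adjusted p = 0.0928) and rose by 3.05 in wild-type cells (adjusted p = 0.0297). ZC3H12A, a ribonuclease, differed by 2.69 in knockout cells (adjusted p = 0.0928) and by 2.32 in wild-type cells (adjusted p = 0.0637). The median of the brakes was 0.52 in knockout and 0.64 in wild-type cells, where all tested genes had -0.02 and -0.14. IRAK3, the inhibitory IRAK, named after its values were seen, had at most 0.012 RPKM. Of 9 ubiquitin enzymes of the pathway 8 were tested and none passed in any tested contrast, where at most 0.217% of tested genes did. PELI1, a ligase that acts on IRAKs, differed by 0.80 in knockout and 0.46 in wild-type cells, and PELI3 by -0.43 in both. None of 13 kinases downstream of TAK1 passed in the 4 tested contrasts, where at most 0.217% of tested genes did. The largest responses among them were those of MAP2K3, an activator of p38, at 0.86 in knockout (adjusted p = 0.64) and 0.81 in wild-type cells (adjusted p = 0.159), and of MAP3K8, at 0.82 (adjusted p = 0.92) and 0.83 (adjusted p = 0.187). MAP2K6, the other main p38 activator, read 3.15 and 1.79 RPKM in IL-1α-treated knockout libraries and 3.87 RPKM in unstimulated knockout cells, against 0.43 and 0.524 RPKM in IL-1α-treated wild-type libraries and 0.612 RPKM unstimulated. Because its wild-type libraries were all under 1 RPKM, MAP2K6 entered the test through its knockout libraries alone. Its difference under IL-1α, 1.57, did not pass (adjusted p = 0.149). Without stimulation it was higher by 1.97 in the knockout library, the only one of the 13 past 2-fold there, with no test.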

How the data were processed

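RNA of 6 HaCaT libraries was measured. Per the submitters' processing notes, bcl2fastq 2.20.0.422, STAR and HOMER were used on hg19. Per the file headers the authors deposited RPKM (columns headed FPKM) from HOMER's exon counting with 1 line per gene symbol; the strand setting is not given in the sources used here. Reads were recovered as the depth that made values of 0.02 to 1 RPKM whole within 0.1 read; 97.9% to 99.8% became whole. They served for voom and for exact 95% intervals, which cover counting error only. The 12925 genes that reached 1 RPKM in any library were kept. Their log2(RPKM + 0.5) values were fitted with limma 3.58.1 under R 4.3.3, using a coefficient for each group and a variance trend, and p-values were adjusted by Benjamini-Hochberg over all of them (threshold 0.05). The spread came from the 2 IL-1α pairs (2 residual and 4.20 prior degrees of freedom) and was assumed for the single unstimulated libraries. Fold values understate low genes. The fit was tested on simulated data. The members and lists were chosen with earlier results of these data known; all 10 members are named, with list genes that passed or, failing that, those of largest difference. Comparisons between genotypes and responses share libraries. Promoters were read from RefSeq (GRCh38.p14); gene coordinates of the table were not mixed with them.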

Additional observations from a re-analysis of the deposited data

Results flagged for a closer look

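TOLLIP lay on opposite sides of its unstimulated level in the genotypes, on the deposited scale: both knockout IL-1α libraries (14.2 and 14.8 RPKM) lay above the unstimulated knockout library (13.0 RPKM), and both wild-type IL-1α libraries (13.8 and 15.0 RPKM) lay below the unstimulated wild-type library (15.4 RPKM). The test of that difference, the limma interaction, gave 0.24 ± 0.27 on the log2 scale (SE, adjusted p = 0.966) and did not pass. The direction in wild-type cells depended on scaling: the wild-type difference was -0.10 as deposited, -0.0096 with quantile normalization and 0.061 after median-of-ratios rescaling.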

How the results depend on the processing

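None of the 10 genes or MAPK14 passed in any of 531 recomputed tests, and 495 kept their direction. Changing only the filter, the variance trend or the block left each difference as it was, so its direction could not change. IRAK2 ran from 1.33 to 2.49 in knockout cells (adjusted p 0.0705 to 0.339) and from 1.29 to 3.42 in wild-type cells (0.0676 to 0.735), its smallest adjusted p in each coming with voom weights and without the variance trend. IRAK2 and TRAF6 are lost with a 5 RPKM minimum. Some values changed sign. Median-of-ratios rescaling put IRAK1 at 0.015 in the knockout response, TOLLIP at 0.061 and MAPK14 at 0.12 in the wild-type response, and TOLLIP at -0.10, TAB1 at -0.066 and TAB3 at -0.0076 for knockout against wild type under IL-1α. Quantile normalization put IRAK1 at 0.000288 in knockout, MAPK14 at 0.052 in wild type, and TOLLIP at -0.071 and TAB1 at -0.043 under IL-1α. Voom put MAPK14 at 0.0064 in wild type. Removing the length trend put IRAK1 at -0.012 and TRAF6 at -0.011 in wild type, TOLLIP at -0.029 under IL-1α, and IRAK4 at 0.049, TRAF6 at 0.10, MAP3K7 at 0.037 and TAB3 at 0.015 in the interaction. A pseudocount of 1 put the IRAK2 interaction at 0.036. Leaving out 1 library at a time gave -0.19 to 0.33 for MYD88 and -0.096 to 0.058 for IRAK1 in knockout, and -0.12 to 0.039 for MAPK14 in wild type. Under IL-1α it gave -0.50 to 0.018 for MYD88, -0.24 to 0.019 for IRAK4, -0.047 to 0.064 for TOLLIP, -0.11 to 0.091 for MAP3K7, -0.26 to 0.35 for TAB1 and -0.10 to 0.31 for TAB3. In the interaction it gave -0.19 to 0.066 for IRAK4, -0.27 to 0.062 for IRAK2, -0.51 to 0.10 for TAB1 and -0.54 to 0.0026 for MAPK14. The cause was not tested.

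Counts of passing genes over the whole table depended on the settings. The knockout response had 9, against 5 with a pseudocount of 1, 65 without a filter, 49 with the 5 RPKM minimum, 4 without the variance trend, 2 with voom and 20 with the length trend removed. The wild-type response had 28, against 49 without a filter, 162 with the 5 RPKM minimum, 53 with median-of-ratios rescaling, 15 with voom and 78 with the length trend removed. Knockout against wild type under IL-1α had 20, against 7 with a pseudocount of 0.1, 0 without a filter or without the variance trend (2637 and 1879 at unadjusted p under 0.05), 88 with the 5 RPKM minimum, 13 with quantile normalization, 56 with voom, and 32 with the length trend removed. The interaction had 0, against 87 without a filter. Genes past 2-fold without stimulation numbered 844, and 508 with the 5 RPKM minimum. Leaving out 1 IL-1α library gave 0 to 0 passing genes: those of its own genotype were left out for each response, and each of the 4 in turn for the comparison of genotypes and for the interaction. Then 1 pair measures the spread. The replicate number as a block gave 62 passing genes under IL-1α and none of the 10. The correlation over genes of the replicate differences was 0.0086. It rests on 1 difference per genotype, so it cannot settle whether the numbers pair the libraries. Depth limits IRAK2 most, with 10 reads in the unstimulated wild-type library.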

Other observations

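The TNF and Toll-like receptor systems gave values not described above. Of 11 TNF receptor proximal genes BIRC3 was the one that passed in either response. Of all tested genes 0.0696% passed in knockout and 0.217% in wild-type cells. BIRC3 is also on the list of known IL-1 response genes, which was chosen with earlier results known. The median of the 11 was 0.29 in knockout and 0.19 in wild-type cells, where all tested genes had -0.02 and -0.14. TRAF5, an adaptor of that system, read 2.32 and 3.64 RPKM in IL-1α-treated knockout libraries against 1.11 and 1.20 RPKM in IL-1α-treated wild-type libraries (1.04 on the log2 scale, adjusted p = 0.199, limma). Of 9 Toll-like receptor and adaptor genes 6 were tested and 0 passed in any tested contrast, where at most 0.217% of tested genes did. TICAM1, the adaptor of TLR3, read 19.7 and 13.2 RPKM in IL-1α-treated knockout libraries against 12.3 RPKM unstimulated, and 31.8 and 25.2 RPKM in IL-1α-treated wild-type libraries against 11.6 RPKM. Its responses were 0.38 in knockout (adjusted p = 1) and 1.25 in wild-type cells (adjusted p = 0.144). TICAM2, the adaptor that bridges TLR4 to TICAM1, differed by 0.60 in knockout (adjusted p = 1) and by 0.42 in wild-type cells (adjusted p = 0.542). TLR2, a surface receptor of the same adaptor MYD88, differed by 0.94 in knockout (adjusted p = 0.71) and by 1.10 in wild-type cells (adjusted p = 0.142).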
